A study of Mus musculus with 6 samples.

Results

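Chemokines are small secreted proteins that guide leukocytes into tissue, and their receptors are G protein-coupled receptors on the cells that respond. The genes described here are all rows of the gene table whose symbol names a chemokine or a chemokine receptor (Ccl, Ccr, Cxcl, Cxcr, Cx3cl, Cx3cr, Xcl, Xcr or Ackr followed by a number), with 1 receptor row left out by the rule. That gave 54 of the 16135 genes in the table, made up of 34 ligands, 17 signalling receptors and 3 atypical receptors, which bind chemokines without G protein signalling. Membership did not depend on expression.

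Whole-liver RNA was sequenced in 3 libraries of ACSS2-flox mice, whose Acss2 alleles are floxed and which serve as controls, and in 3 of ACSS2-HKO mice, in which Acss2 was deleted in hepatocytes. The gene encodes an acetyl-CoA synthetase of the cytosol and nucleus. The 2 groups are also called control and knockout livers. All animals had 10 days of Lieber-Decarli liquid food with ethanol and then 1 binge dose of ethanol, so no group without ethanol enters the comparison. The sources used here give no age, sex or Cre driver, and do not say whether each library came from its own animal, so each p-value reflects only library-to-library spread, which may be technical. Levels are FPKM, fragments scaled to gene length and to the library total, and these values imply totals of 33717125 to 39474527 fragments per library.

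ACSS2-HKO replicate 3 and ACSS2-flox replicate 1 differed most from the remaining 4 libraries. On the first principal component of all tested genes, which held 47.2% of the variance, they lay at 27.6 and -47.7, and the rest between 2.5 and 8.5. Relative to the other ACSS2-flox libraries, replicate 1 read higher in the shortest 10% of genes (median difference 0.28 on the log2 scale) and lower in the longest 10% (-0.55). Acss2 itself read 87.8, 61.5 and 58.5 FPKM in ACSS2-flox replicates 1, 2 and 3 and 50.6, 38.4 and 45.7 FPKM in ACSS2-HKO replicates 1, 2 and 3. Its means were 69.2 and 44.9 FPKM, so much of the transcript remained in ACSS2-HKO liver. The log2 fold change of Acss2, ACSS2-HKO minus ACSS2-flox, was -0.60 ± 0.21 (standard error, limma adjusted p = 0.637). The hepatocyte gene Alb read 38187 to 59759 FPKM, which fits the tissue label. Values below follow this order of libraries, and the main results are also given without the libraries that stand apart.

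Hepatocytes, Kupffer cells, endothelial cells and stellate cells all make chemokines, and different ligands call different cells. CXC ligands with a Glu-Leu-Arg motif, such as CXCL1, CXCL2 and CXCL5, attract neutrophils. CCL2 and its neighbours attract monocytes, CXCL9 and CXCL10 attract activated T cells, and CXCL12 and CXCL13 position lymphocytes and other cells in resting tissue. Transcription of many inflammatory chemokine genes is switched on by NF-kB, and that of CXCL9 and CXCL10 by interferon signalling.

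The stretches before the start sites of 4 of the chemokine genes are shown because they carry these 2 kinds of element and belong to genes whose levels differed greatly from each other. Sequences are from RefSeq (GRCm38.p6) and end at the base before the annotated start site. Of the 54 genes, 41 matched an entry. Capitals mark matches, on either strand, to a kB motif (GGG, any 2 bases, then TTTCC) or to an interferon-response motif (GAAA, any 2 bases, then GAAA). The neighbouring genes Cxcl1, Cxcl2 and Cxcl3 lie on the plus strand of chromosome 5, at chr5:90891125-90891244, chr5:90903779-90903898 and chr5:90785981-90786100 for the stretches shown. Cxcl10 lies on the minus strand at chr5:92348890-92349139.
Cxcl1: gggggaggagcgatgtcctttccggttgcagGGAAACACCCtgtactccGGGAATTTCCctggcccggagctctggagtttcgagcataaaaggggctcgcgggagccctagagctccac
Cxcl2: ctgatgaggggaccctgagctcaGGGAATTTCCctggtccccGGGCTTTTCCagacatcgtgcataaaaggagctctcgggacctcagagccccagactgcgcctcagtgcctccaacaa
Cxcl3: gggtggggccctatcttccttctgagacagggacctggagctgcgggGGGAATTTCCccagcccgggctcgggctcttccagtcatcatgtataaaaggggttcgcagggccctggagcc
Cxcl10: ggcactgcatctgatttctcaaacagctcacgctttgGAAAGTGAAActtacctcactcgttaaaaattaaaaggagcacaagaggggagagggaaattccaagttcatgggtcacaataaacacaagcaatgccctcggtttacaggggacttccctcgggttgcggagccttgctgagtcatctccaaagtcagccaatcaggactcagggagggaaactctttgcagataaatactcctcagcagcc

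The kB run GGGAATTTCC was shared by Cxcl1, Cxcl2 and Cxcl3, with its first base 71, 97 and 73 bases before the start site. Cxcl1 and Cxcl2 each carried another match, 89 and 78 bases before the start site. Within 250 bases before the start site the kB motif was found in 6 of the 41 chemokine and receptor genes (14.6%) and in 378 of 27025 promoters of that length (1.4%). The 3 other genes with a match were Ccl9, Ccl20 and Ccr3. The interferon-response motif was found in 3 of the 41, Cxcl10, Ccl19 and Cxcl14, and in 3.0% of all promoters. Cxcl10 and Ccl19 shared the run GAAAGTGAAA. These matches describe letters in a window and not bound sites.

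Of the 54 genes, 19 averaged 1 FPKM or more across all libraries and were tested. The remaining 35 had means from 0.00208 to 0.986 FPKM. In ACSS2-flox liver the most abundant transcripts, per length, were those of Cxcl12 (36.6 ± 7.17 FPKM, SD, n = 3), Ccl9 (26.0 ± 8.79) and Ccl6 (15.1 ± 4.60), followed by Cxcl9 (9.27 ± 3.65), Ccl5 (8.46 ± 7.80), Cxcl16 (7.24 ± 3.04) and Cxcl10 (5.11 ± 0.627). Cxcl12 and Ccl9 overlapped in range, from 30.6 to 44.5 and from 17.6 to 35.1 FPKM, and so did Ccl9 and Ccl6. The levels of Cxcl9, Ccl5, Cxcl16 and Cxcl10 overlapped with one another. Below them lay the other tested genes, at means of 0.0478 (Cxcl5) to 3.62 FPKM (Ccl27a).

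No chemokine or receptor gene passed the test between the genotypes. With limma on log2(FPKM + 1), adjusted over all 9818 genes of at least 1 FPKM, 0 of the 19 tested members passed 0.05 in either direction, and neither did any other gene (0% higher, 0% lower). The smallest adjusted p was 0.554 among the members and 0.452 among all genes. At an unadjusted p under 0.05, limma gave 4 of the 19 higher, Cxcl13, Cxcl1 and Ccl6 among them, and 0 lower, against 6.09% of all genes higher and 1.5% lower. The moderated test on recovered fragments (limma voom) gave 0 members after adjustment and 5 before, all higher, against 5.72% of genes higher and 1.4% lower.

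Log2 fold changes, ACSS2-HKO minus ACSS2-flox on the log2(FPKM + 1) scale, were above 0 for 16 of the 19, against 66% of all genes. With trimmed-mean, median-ratio or quantile scaling or a correction for gene length the count was 14, with Ccl27a and Cxcl9 turning negative. The median of the 19 was 0.51 and that of all tested genes 0.10. With no filter the median was 0.105 over all 54 members and 0.046 over all genes in the table. With ACSS2-HKO replicate 3 left out, the 19 had a median of 0.224, and without that library and ACSS2-flox replicate 1 it was 0.205. No median of all genes is given with libraries left out, so such medians, here and below, stand without a background. The filter lets a low gene in through the group where it is high, as it did Cxcl5 and Ccl19, so these counts describe the tested genes alone. Over all 54 genes the ACSS2-HKO mean exceeded the ACSS2-flox mean in 44, against 64.7% of the table, and in 31 without ACSS2-HKO replicate 3, against 63.7%.

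**Figure D1:**
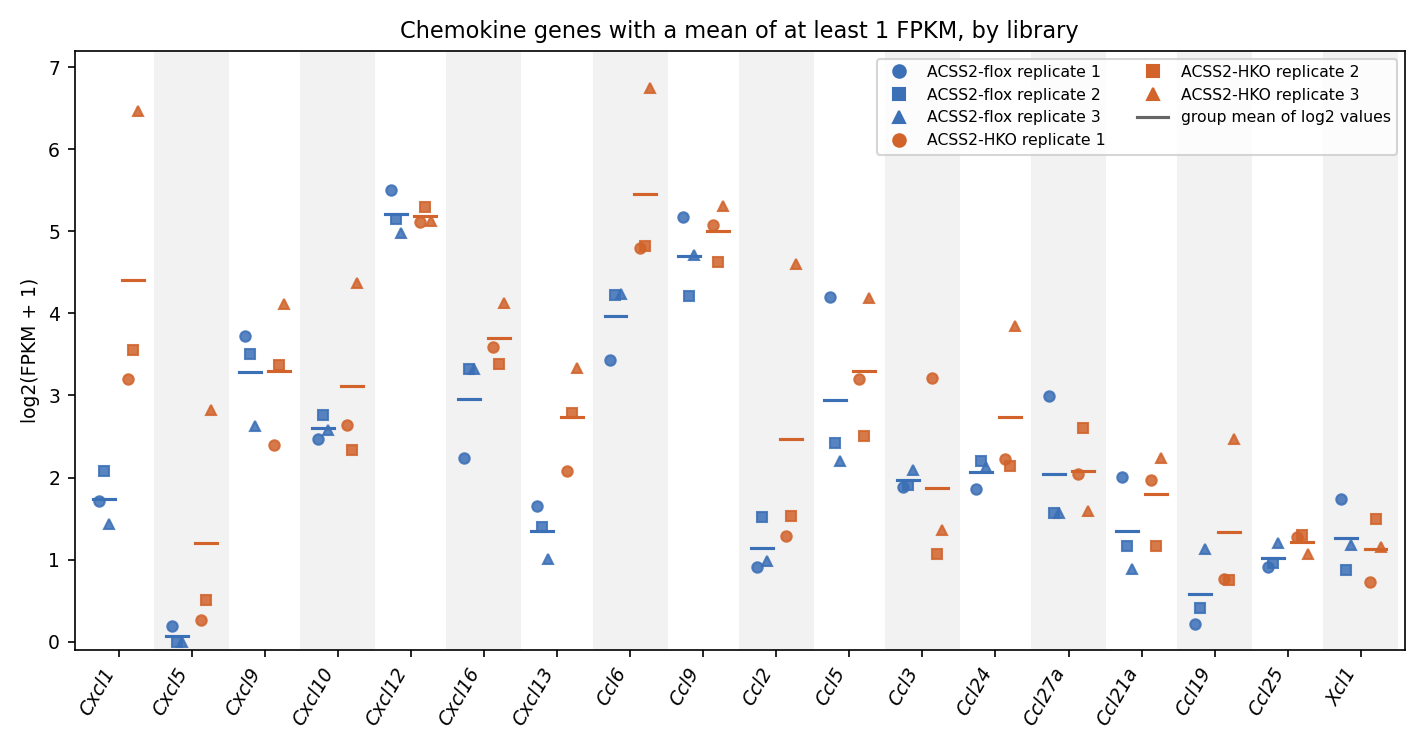
Level of 18 tested chemokine genes in each library, as log2(FPKM + 1), with the genes on the x axis grouped by role. Blue marks are the 3 ACSS2-flox libraries, orange marks the 3 ACSS2-HKO libraries, and short lines the group means of the log2 values. The ACSS2-HKO replicate 3 triangle is the highest mark for 12 of the 18 genes.

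The groups did not overlap for 6 of the 19 tested members, among them Cxcl1, Cxcl5, Cxcl13, Cxcl16 and Ccl6, all higher in ACSS2-HKO, against 12.5% of all tested genes higher and 2.94% lower. Cxcl16 overlapped with trimmed-mean and median-ratio scaling and with the length correction, and Cxcl5 with quantile scaling and with the length correction. For each of the 6 the exact permutation p, two-sided, was 0.1, the smallest that 3 libraries against 3 allow. Cxcl5 passed the filter only through its value in ACSS2-HKO replicate 3. Its separation rested on 8 fragments in the highest control library against 12 in the lowest knockout library. Counting error alone could close that gap, so Cxcl5 adds little to the count of 6. Without ACSS2-HKO replicate 3 the same 6 and Ccl25 did not overlap, against 16.8% of genes higher and 3.46% lower. Without ACSS2-flox replicate 1 as well, 10 did not overlap, all higher, in a comparison of 2 libraries with 2 in which 23.4% of genes did not overlap and were higher and 17.7% were lower.

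Cxcl1, a neutrophil-attracting CXC ligand, had the highest log2 fold change of the 19 tested members. The gene (chr5:90891245-90893121) read 2.27, 3.24 and 1.69 FPKM in control livers and 8.20, 10.7 and 87.6 FPKM in knockout livers. Every ACSS2-HKO library lay above every ACSS2-flox library, and replicate 3 lay 8.19-fold above the next highest. Group averages were 2.40 ± 0.780 and 35.5 ± 45.1 FPKM (SD, n = 3), giving a ratio of 14.8 as deposited and 3.94 without replicate 3. The log2 fold change was 2.67 ± 0.74 (standard error, limma adjusted p = 0.607), and 1.635 without replicate 3.

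Cxcl5 (chr5:90759298-90761625), whose product shares its neutrophil receptor with that of Cxcl1, was nearly absent outside ACSS2-HKO replicate 3. It read 0.143, 0 and 0 FPKM in control livers and 0.205, 0.420 and 6.06 FPKM in knockout livers. The fragments behind these values were 8, 0 and 0 against 12, 25 and 396. The log2 fold change of 1.13 ± 0.58 (limma adjusted p = 0.670) was 0.32 without replicate 3. At levels this low it also moved with the scale, to 2.883 with a pseudocount of 0.1, 0.426 with a pseudocount of 5 and 5.327 with voom. Cxcl2 and Cxcl3 did not share this pattern, although they carry the same kB run as Cxcl1. Cxcl2 read 0.192, 0.124 and 0.313 FPKM in control livers and 0.574, 0.0514 and 0.585 FPKM in knockout livers. Its lowest and its highest library were both ACSS2-HKO, and the groups overlapped. Cxcl3 was at 0 in 4 libraries and at most 0.106 FPKM.

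The interferon-inducible ligands overlapped between the groups. Cxcl9 read 12.2, 10.4 and 5.18 FPKM in control livers and 4.28, 9.31 and 16.3 FPKM in knockout livers, so the lowest and the highest library were both ACSS2-HKO. The estimate (log2 fold change) was 0.01 ± 0.44 and turned negative with every scaling tried. Cxcl10 (4.55, 5.79 and 4.98 FPKM against 5.21, 4.05 and 19.8 FPKM) was high in ACSS2-HKO replicate 3 alone. On the log2 scale the fold change of 0.51 ± 0.47 (limma adjusted p = 0.808) became -0.12 without that library. Cxcr3, the receptor of both on T cells, read 0.461, 0.434 and 0.551 FPKM against 0.334, 1.11 and 1.15 FPKM, below the filter and overlapping.

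Cxcl13, which draws B cells through CXCR5, had the smallest p of all members. It read 2.14, 1.64 and 1.01 FPKM in control livers and 3.24, 5.90 and 9.11 FPKM in knockout livers. All 3 ACSS2-HKO libraries were above the ACSS2-flox range, and the difference did not rest on 1 library. Group averages were 1.60 ± 0.568 and 6.08 ± 2.94 FPKM (SD, n = 3), giving a ratio of 3.80, and 2.86 without ACSS2-HKO replicate 3. For this gene the log2 fold change of 1.38 ± 0.32 (limma adjusted p = 0.554) stayed between 1.08 and 1.71 when 1 library at a time was left out. Cxcr5 stayed at 0.0594 to 0.153 FPKM in all 6 libraries, with overlapping groups. Among B cell and plasma cell markers, 3 of 7 in the table were tested and all were positive (median 0.39). Of these, Cd79a passed the filter only through knockout livers, with means of 0.893 FPKM in control and 1.45 FPKM in knockout livers. Jchain, the joining chain of secreted antibody, read 3.85, 1.52 and 0.869 FPKM against 4.12, 6.45 and 7.71 FPKM. The part of these cells in the Cxcl13 values was not tested.

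Cxcl16, a membrane-bound ligand that also acts as a scavenger receptor, read 3.73, 9.02 and 8.97 FPKM in control livers and 11.04, 9.40 and 16.5 FPKM in knockout livers. Its log2 fold change was 0.74 ± 0.33 (limma adjusted p = 0.649), and ACSS2-flox replicate 1 gave the lowest value. Without that library it was 0.378, and without ACSS2-HKO replicate 3 as well 0.163. Its receptor gene Cxcr6 read 0.392 to 0.568 FPKM in control livers and 0.433 to 0.883 FPKM in knockout livers. Cxcl12, the ligand of CXCR4, held nearly the same level in both groups. It read 44.5, 34.6 and 30.6 FPKM against 33.7, 38.5 and 33.8 FPKM, and its log2 fold change was -0.03 ± 0.19 (limma adjusted p = 0.974). Cxcr4 read 0.835, 0.327 and 0.426 FPKM against 0.206, 0.174 and 0.969 FPKM, and the lowest and highest of the 6 values were again ACSS2-HKO libraries. Cxcl14 stayed below the filter, from 0.425 to 1.54 FPKM.

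The monocyte-attracting CC ligands lie together on chromosome 11, and each of Ccl2, Ccl7, Ccl8, Ccl12, Ccl6 and Ccl9 had its highest value in ACSS2-HKO replicate 3. Ccl2 (chr11:82035577-82037452) read 0.883, 1.87 and 0.971 FPKM in control livers and 1.44, 1.90 and 23.3 FPKM in knockout livers. The other 2 ACSS2-HKO libraries lay within or just above the ACSS2-flox range. The estimate (log2 fold change) of 1.34 ± 0.76 (limma adjusted p = 0.690) was 0.27 without replicate 3, and the ratio of means went from 7.15 to 1.35. Ccl7 and Ccl8, its neighbours, had 77 and 66 fragments in that library and at most 6 and 8 in any other. Ccl12 had 6 there and at most 1 elsewhere.

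Ccl6 and Ccl9 differ from that group in their high level in every library. Ccl6, made by myeloid cells, read 9.79, 17.6 and 17.9 FPKM in control livers and 26.7, 27.2 and 106 FPKM in knockout livers. The groups did not overlap, with or without replicate 3. The means of 15.1 ± 4.60 and 53.4 ± 45.8 FPKM (SD, n = 3) gave a ratio of 3.54, and 1.79 without replicate 3. On the log2 scale the fold change was 1.49 ± 0.51 (limma adjusted p = 0.637), 0.84 without replicate 3, and 0.58 without ACSS2-flox replicate 1 as well. Ccl9, a close relative of Ccl6 in sequence, read 35.1, 17.6 and 25.2 FPKM against 32.7, 23.8 and 38.5 FPKM. Its groups overlapped, and its log2 fold change was 0.30 ± 0.28 (limma adjusted p = 0.810). That value was 0.149 without ACSS2-HKO replicate 3, 0.536 without ACSS2-flox replicate 1 and 0.058 without ACSS2-flox replicate 2.

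The T cell and macrophage attractants Ccl3, Ccl4 and Ccl5 had no common direction. Ccl3 read 2.70, 2.76 and 3.27 FPKM in control livers and 8.23, 1.09 and 1.57 FPKM in knockout livers, so replicate 1 was the highest of all 6 libraries and the other 2 the lowest. Ccl3 and Ccl4 overlap in the RefSeq annotation, and how fragments in the shared stretch were divided is unknown. Ccl4 was below the filter and was also highest in ACSS2-HKO replicate 1, at 1.80 FPKM. Ccl5, a product of T and NK cells, read 17.4, 4.35 and 3.58 FPKM against 8.19, 4.66 and 17.2 FPKM. Its 2 high values belonged to ACSS2-flox replicate 1 and ACSS2-HKO replicate 3. The log2 fold change was 0.36 ± 0.58 (limma adjusted p = 0.903), 0.99 without the first and -0.09 without the second. Summed T cell markers were highest in the same pair of libraries, at 6.34 and 10.3 FPKM against 3.71 to 4.23 FPKM in the others. Summed NK cell markers were also highest in that pair, at 9.12 and 15.2 FPKM against 4.23 to 6.97 FPKM. The part of those cells in the Ccl5 values was not tested.

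The other CC ligands above the filter overlapped between the groups. Ccl24, which attracts eosinophils, read 2.64, 3.61 and 3.39 FPKM in control livers and 3.67, 3.41 and 13.4 FPKM in knockout livers. The fold change on the log2 scale, 0.67 ± 0.42 (limma adjusted p = 0.717), was 0.12 without replicate 3. Ccl19, which guides dendritic cells and T cells through CCR7, read 0.157, 0.332 and 1.197 FPKM against 0.698, 0.688 and 4.56 FPKM. For this gene the log2 fold change of 0.745 ± 0.46 (limma adjusted p = 0.714) was 0.17 without replicate 3. Ccl19 passed the filter only through its value in that library. Ccl21a, another CCR7 ligand, read 3.01, 1.24 and 0.842 FPKM against 2.93, 1.25 and 3.71 FPKM, with overlapping groups. Ccl21a and Ccl27a have near-identical copies in the mouse genome, so the share of their fragments that belongs to each copy is uncertain.

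Ccl25, a ligand of gut-homing lymphocytes, read 0.880, 0.945 and 1.30 FPKM against 1.41, 1.47 and 1.098 FPKM (log2 fold change 0.19 ± 0.17, limma adjusted p = 0.798). It was 1 of 6 tested members that were not highest in ACSS2-HKO replicate 3, and in the ACSS2-HKO group that library had the lowest value. Ccl27a read 6.95, 1.96 and 1.96 FPKM against 3.12, 5.08 and 2.02 FPKM, and its span overlaps Il11ra1 in the annotation. Xcl1, the ligand of cross-presenting dendritic cells, read 2.35, 0.830 and 1.26 FPKM against 0.655, 1.83 and 1.22 FPKM. Neither Ccl27a (log2 fold change 0.04 ± 0.41) nor Xcl1 (-0.14 ± 0.28) separated the groups.

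**Figure D2:**
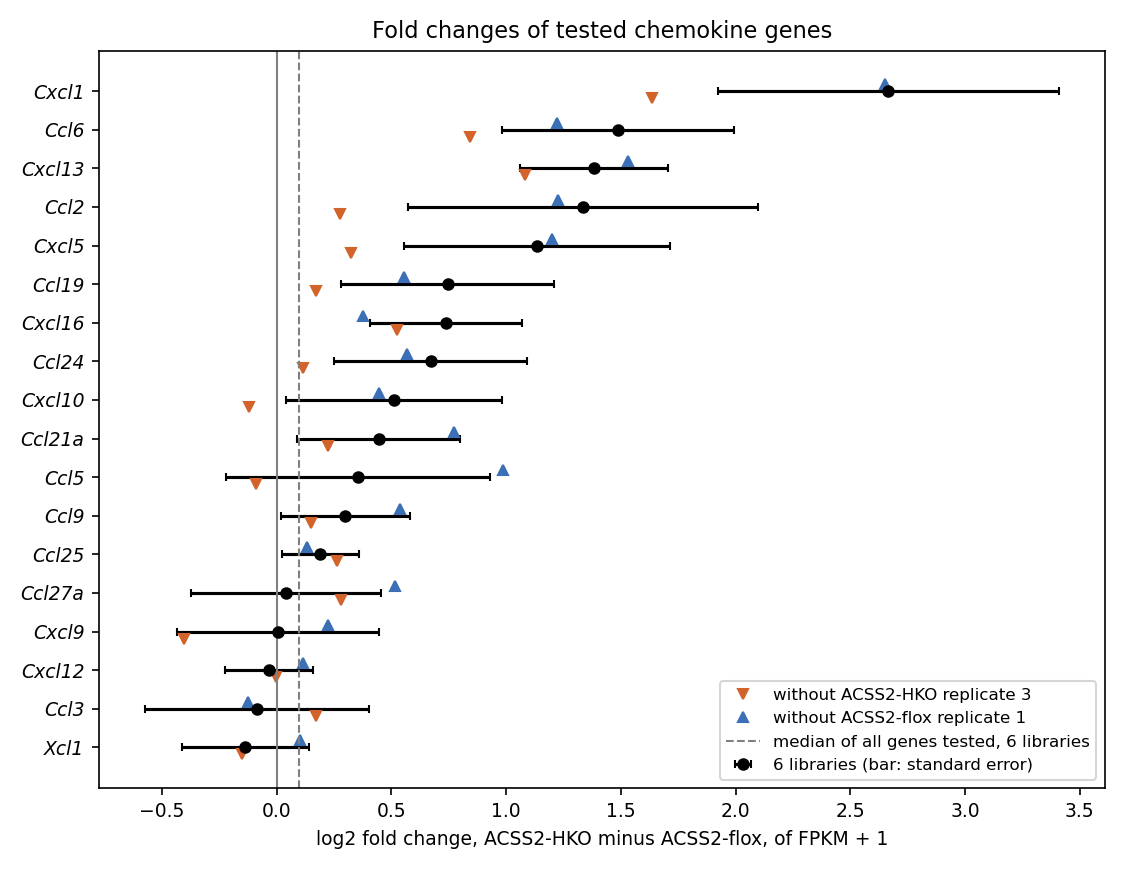
Log2 fold change, ACSS2-HKO minus ACSS2-flox, of FPKM + 1 (x axis) for 18 tested genes (y axis), with all 6 libraries (black, bars are standard errors), without ACSS2-HKO replicate 3 (orange) and without ACSS2-flox replicate 1 (blue); the dashed line is the median of all tested genes. Cxcl1, Cxcl13 and Ccl6 keep orange marks at or above 0.84, whereas those of Ccl2, Cxcl5, Ccl19 and Ccl24 lie between 0.12 and 0.32.

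Receptors were mostly below the filter. Among the 35 untested genes the groups did not overlap for 3, Ccr1, Ccr2 and Ccl11, all higher in ACSS2-HKO, against 9.4% of genes below 1 FPKM higher and 1.8% lower. Ccr1 and Ccr2 lie on chromosome 9 and encode receptors of inflammatory myeloid cells. Ccr1, which binds the products of Ccl6 and Ccl9, read 0.0943, 0.161 and 0.138 FPKM in control livers and 0.370, 0.334 and 2.44 FPKM in knockout livers, from 9, 17 and 15 fragments against 37, 34 and 273. Ccr2, the receptor of CCL2 on monocytes, read 0.352, 0.609 and 0.348 FPKM against 0.880, 0.719 and 2.86 FPKM. Both were higher in each ACSS2-HKO library, and without replicate 3 their ratios of means were 2.68 and 1.83. Ccl11 had 0 fragments in each ACSS2-flox library and 1, 1 and 7 in ACSS2-HKO, too few to rank.

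The fractalkine receptor gene Cx3cr1, a mark of patrolling monocytes, read 0.221, 0.208 and 0.299 FPKM in control livers and 0.543, 0.267 and 1.11 FPKM in knockout livers, with overlap in replicate 2. Its ligand gene Cx3cl1 read 0.145 to 0.299 FPKM against 0.151 to 0.508 FPKM. Ccr7 overlapped, from 0.0953 to 0.601 FPKM in control livers and from 0.0987 to 0.5002 FPKM in knockout livers. The 3 atypical receptor genes were below the filter, and each overlapped between the groups. Ackr2, which removes inflammatory CC chemokines, read 0.262, 1.203 and 0.979 FPKM against 0.776, 0.992 and 0.807 FPKM. Ackr4, which removes CCR7 ligands, read 0.304, 1.03 and 1.32 FPKM against 1.004, 0.663 and 0.380 FPKM. Ackr3, which removes CXCL12, read 0.323 to 0.638 FPKM against 0.279 to 0.771 FPKM.

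The remaining untested genes were close to absent. In 13 of the 35 no library exceeded 10 recovered fragments, among them Ccl11, Ccl12, Ccl21b, Ccl28, Ccr3 and Ccr4. This count takes the shortest gene length that fit. For some of the 13, such as Ccl1, that length was ambiguous, and a longer one would give more fragments. Of the rest, Ccl17, Ccl22, Ccr6, Ccr9 and Xcr1 had at most 36 fragments in any library. Of the 54 genes, 19 were at 0 in at least 1 library, and such a 0 allows up to 3 fragments by counting error alone. Among the untested genes, 23 of 35 had their highest value in ACSS2-HKO replicate 3. Over all 54 genes that library was highest in 36, against 25.4% of all genes in the table, and the other libraries were highest in 2 to 6 each.

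**Figure D3:**
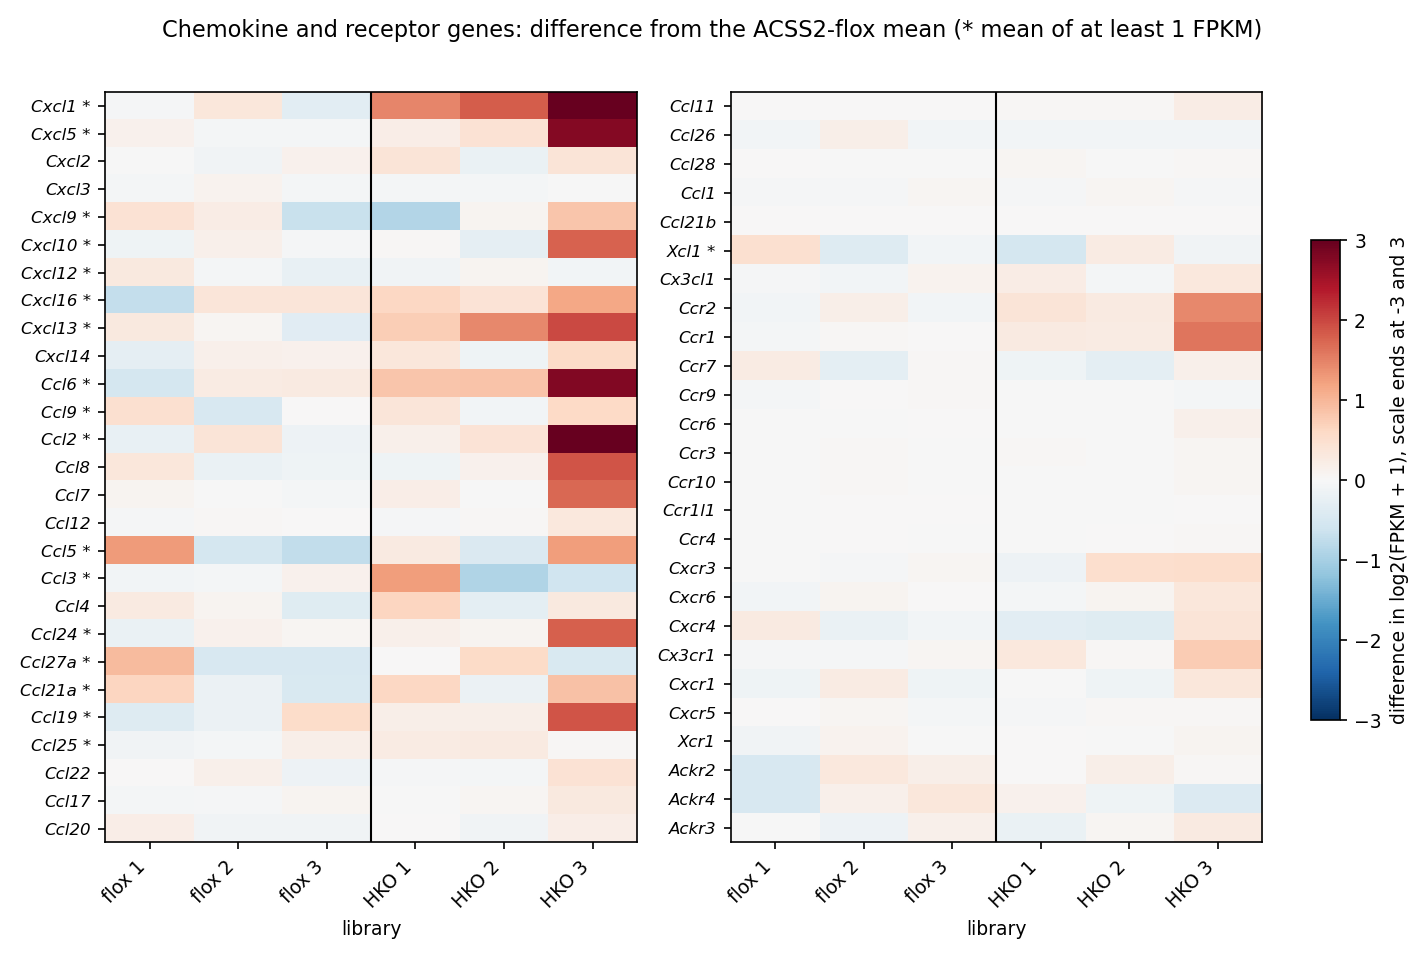
Difference of each library from the ACSS2-flox mean in log2(FPKM + 1) for 53 chemokine and receptor genes, with red above and blue below that mean and the colour scale ending at 3 in both directions. Rows are genes grouped by role, columns the 6 libraries, and stars mark tested genes. The ACSS2-HKO replicate 3 column holds the darkest red cells, at Cxcl1, Ccl2, Ccl6 and Cxcl5.

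Summed over the 54 genes the level was 161, 131 and 125 FPKM in control livers and 172, 163 and 441 FPKM in knockout livers. Summed markers of neutrophils, Kupffer cells and macrophages, and inflammatory monocytes did not overlap between the groups and were higher in knockout livers, although no marker passed limma after adjustment. Neutrophil markers without Lcn2, which hepatocytes also make, summed to 8.39 to 18.2 FPKM in control livers and to 39.6, 55.3 and 361 FPKM in knockout livers. All 6 tested of the 15 neutrophil markers were positive (median 2.53, and 1.65 without ACSS2-HKO replicate 3). The defining marker Ly6g was at 0 in each ACSS2-flox library and read 0.0302, 0.208 and 1.08 FPKM in ACSS2-HKO. The filter let Retnlg in through knockout livers, with means of 0.655 FPKM in control and 11.3 FPKM in knockout livers. Chil3 of the monocyte list entered likewise (0.492 and 6.35 FPKM), so the counts of positive markers describe the tested markers alone. Kupffer cell and macrophage markers summed to 491 to 798 FPKM against 924 to 2273 FPKM, with 15 of 15 positive (median 0.88, and 0.49 without ACSS2-HKO replicate 3). The Kupffer cell gene Clec4f read 31.0, 46.5 and 39.97 FPKM against 58.5, 53.3 and 117 FPKM. The groups did not overlap for 9 of the 15, all higher, against 12.5% of all tested genes higher and 2.94% lower. Clec4f was among the 9, but the groups overlapped for the defining markers Adgre1 and Vsig4. Inflammatory monocyte markers summed to 7.72 to 8.52 FPKM against 11.5, 12.8 and 58.7 FPKM, and 5 of the 7 were tested, all positive (median 0.97). Without ACSS2-HKO replicate 3, 4 of those 5 were positive (median 0.41). The exception was the defining marker Ly6c2, at 1.15, 1.36 and 0.521 FPKM in control livers and 0.697, 0.948 and 6.10 FPKM in knockout livers. Its groups overlapped, and its log2 fold change of 0.54 was -0.12 without that library. With all libraries the other 4 did not overlap between the groups and were higher, against the same shares of all tested genes. Dendritic cell markers summed to 2.24, 2.04 and 1.76 FPKM against 1.66, 1.60 and 3.90 FPKM, so that ACSS2-HKO replicates 1 and 2 were the lowest. In whole liver, a change in the number of such cells and a change in RNA per cell cannot be told apart, and the part of these cells in the chemokine values was not tested.

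**Figure D4:**
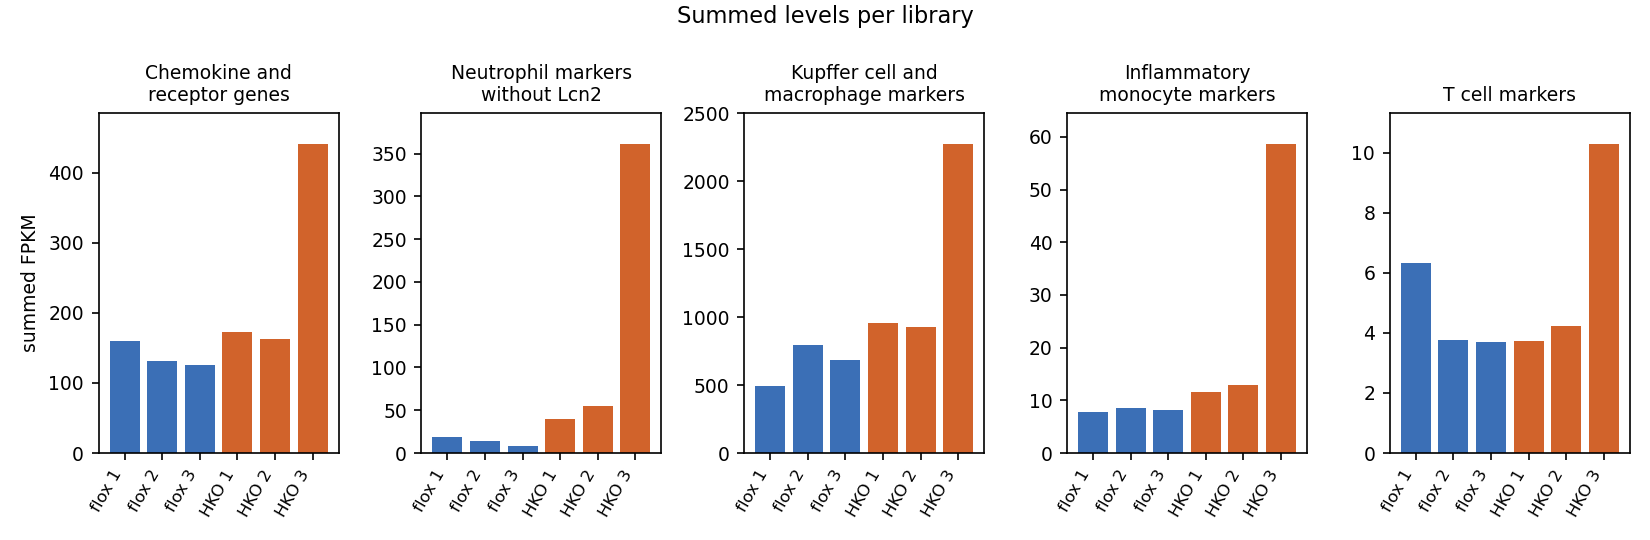
Summed FPKM per library (y axes, each from 0 with its own scale) of the 54 chemokine and receptor genes and of 4 marker lists, with ACSS2-flox libraries in blue and ACSS2-HKO libraries in orange. In each panel the highest bar is ACSS2-HKO replicate 3, with 441 FPKM for the chemokine and receptor genes and 361 FPKM for the neutrophil markers.

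Markers of the other cell types showed mostly smaller or mixed differences. Endothelial markers summed to 61.0 FPKM in ACSS2-flox replicate 1 and to 168 to 260 FPKM in the other 5 libraries. They were positive in 9 of 10 with all libraries (median 0.20) and in 1 of 10 without that library (median -0.29). Stellate cell and fibroblast markers were positive in 7 of 10 (median 0.34). Without ACSS2-HKO replicate 3, 9 were positive (median 0.37), and without both libraries that stood apart 9 were (median 0.20). With all libraries 5 of the 10 did not overlap, all higher, against 12.5% of all tested genes higher and 2.94% lower. Of these, Pdgfrb passed the filter only through knockout livers, with means of 0.879 FPKM in control and 1.75 FPKM in knockout livers. Of the NK cell markers 3 of 8 were tested and 2 were positive. Only Gzma among the 3 did not overlap, at 2.69, 0.702 and 0.977 FPKM against 2.76, 2.75 and 7.30 FPKM. The defining NK cell markers Ncr1, Klrb1c and Klrk1 were below the filter and overlapped, with lower means in knockout livers. Those means were 0.191, 0.396 and 1.08 FPKM in control livers and 0.0611, 0.288 and 0.908 FPKM in knockout livers. None of the 7 dendritic cell markers averaged 1 FPKM or more. Hepatocyte markers were negative in 8 of 10 (median -0.31, and -0.12 without both). The only tested T cell marker was Cd3g (0.17, and -0.19 without ACSS2-HKO replicate 3), and the only tested cholangiocyte marker was Muc1 (0.72). Muc1 passed the filter only through knockout livers, with means of 0.509 FPKM in control and 1.54 FPKM in knockout livers, so its sign carries little weight. No marker of any of these lists passed limma after adjustment.

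Genes around the chemokine system were mostly positive, with 0 passing limma after adjustment in any list. In receptor signalling, 27 of the 29 tested genes of 37 were positive (median 0.33, against 0.10 for all genes). Vav1, the activator of Rac, read 1.09, 1.14 and 1.102 FPKM in control livers and 2.08, 1.77 and 4.41 FPKM in knockout livers, and the leukocyte GTPase gene Rac2 read 5.04, 6.30 and 4.82 FPKM against 7.67, 7.76 and 19.3 FPKM. Neither gene overlapped between the groups. Without ACSS2-HKO replicate 3, 26 of the 29 were positive (median 0.20), and without both libraries that stood apart 15 were (median 0.04).

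In NF-kB signalling and feedback, 20 of the 21 tested genes of 25 were positive (median 0.46). The count was 18 without ACSS2-HKO replicate 3 (median 0.28) and 12 without both of those libraries (median 0.21). Il1b, the cytokine interleukin 1 beta, read 2.30, 2.34 and 1.501 FPKM in control livers and 2.73, 4.25 and 8.43 FPKM in knockout livers, a log2 fold change of 0.92 ± 0.33 that was 0.55 without ACSS2-HKO replicate 3. Nfkbie and Nfkb2, members of the NF-kB feedback loop, had log2 fold changes of 0.62 ± 0.24 and 0.68 ± 0.28, and of 0.377 and 0.358 without that library. Nfkb2 passed the filter only through knockout livers, with means of 0.776 FPKM in control and 1.98 FPKM in knockout livers. The counts of positive NF-kB genes therefore describe the tested genes alone. Leukocyte adhesion genes were positive in 12 of 12 tested of 20 (median 0.72). The median was 0.34 without ACSS2-HKO replicate 3, and 9 were positive with a median of 0.07 without both libraries. Icam1, the endothelial and hepatocyte ligand of leukocyte integrins, read 5.72, 8.24 and 7.31 FPKM against 12.1, 10.4 and 37.2 FPKM.

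The interferon gamma response list was positive in 16 of 16 tested of 19, with a median of 0.27. Without ACSS2-HKO replicate 3, 11 were positive with a median of 0.08, and without both libraries 11 with a median of 0.23. Tap1, the peptide transporter of antigen presentation, read 7.92, 6.31 and 6.52 FPKM in control livers and 11.4, 10.8 and 14.9 FPKM in knockout livers, where Cxcl9 (log2 fold change 0.01) overlapped. Irf1, a transcription factor induced by interferon, read 8.45, 8.57 and 7.10 FPKM against 11.8, 9.19 and 21.1 FPKM. Of the chemokine-related genes with other names, 6 of 7 were tested and 4 were positive (median 0.27, but 0.05 without ACSS2-HKO replicate 3 and 0.06 without both libraries). Pf4, the platelet chemokine CXCL4, read 1.26, 0.503 and 1.33 FPKM against 1.59, 0.947 and 2.67 FPKM. Cmklr1, the chemerin receptor, read 0.520, 1.61 and 0.928 FPKM against 1.81, 1.36 and 4.71 FPKM, and both overlapped.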

How the data were processed

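The authors deposited 1 FPKM value per gene and library, and the submitters' processing notes name the build mm10 and the tool DESeq2 without a role. For the aligner, counter, annotation, strand setting and filters: not given in the sources used here. Each library's genotype label set its group. Tests used log2(FPKM + 1) of the 9818 genes averaging 1 FPKM or more, with limma 3.58.1 in R 4.3.3 (eBayes with a trend), two-sided, Benjamini-Hochberg adjustment over all of them and a threshold of 0.05. The pseudocount of 1 shrinks fold changes of low genes. Fragments were recovered from the FPKM values by a search for whole gene lengths and library totals. They were whole within 0.01 for 16065 genes (99.6%), and lengths above 30000 bases were not searched. Apart from the count of untested genes with at most 10 of them, they are printed only where the recovered length was unambiguous. Limma and the search were tested on simulated data. Coordinates are from RefSeq GRCm38.p6, which shares its chromosomes with mm10. RefSeq overlaps Cxcl10 with Art3, and Cxcl16 with Zmynd15.

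By the naming rule, values in every library are given for tested members that are among the 12 of smallest p, highest in their role group or not overlapping. Untested members are named where their groups do not overlap or 1 library stands well above the others. Genes named from other lists are among the 3 of smallest p or, for cell types, the first 3 markers. All further genes named with values were chosen after their values were seen. The receptor row left out, and some genes that the counts include, are not reported here. The members and lists were chosen with earlier results of these data known. Same-numbered libraries deviated from their group means with correlations of 0.01, 0.00 and -0.06, which gave no sign of pairing by replicate number. With 3 libraries per group these values cannot exclude pairing, and the main test assumed none. Alternatives were pseudocounts, filters, scalings, variance models, array weights, voom, a replicate block and left-out libraries, and a loess correction for gene length was added after the data were seen.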

Additional observations from a re-analysis of the deposited data

How the results depend on the processing

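No member passed the adjusted threshold under any of the 19 alternatives, and the lowest adjusted p of a member was 0.145. Of the 19 tested members, 11 kept the sign of their log2 fold change under every alternative that tested them. Over all genes the count past the threshold was 0, except 4 with the replicate block and 0 to 3 with 1 library left out. Whether the replicate numbers of that block pair the libraries is unknown. With the block 8 members had an unadjusted p under 0.05, all higher, against 6.7% of genes higher and 1.75% lower.

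Genes at an unadjusted p under 0.05 numbered 598 higher and 147 lower. They were 917 higher with no filter, 311 higher with the filter at 5 FPKM, 384 and 291 with trimmed means, 371 and 302 with median ratios, 391 and 357 with quantiles, and 394 and 394 with the length correction. Lower genes were 382 with array weights and 371 without both libraries that stood apart. Leaving out 1 library at a time gave 282 to 579 higher and 74 to 460 lower, and members from 3 to 7. Positive members were 44 of 54 with no filter and 10 of 11 with the filter at 5 FPKM. Members that did not overlap were 10 without both libraries, against 23.4% of genes higher and 17.7% lower.

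Signs turned for 8 members. Cxcl9 read -0.004 with a pseudocount of 0.1, -0.116, -0.115 and -0.067 with trimmed means, median ratios and quantiles, -0.101 with array weights, -0.119 with the length correction and -0.185 without both libraries. Ccl27a read -0.004 with a pseudocount of 5, -0.079, -0.078 and -0.115 with the scalings and -0.041 with the length correction. Ccl3 read 0.034 with a pseudocount of 5, 0.137 with array weights and 0.134 without both. Array weights gave Cxcl12 0.085 and Xcl1 0.035, and leaving out both libraries gave 0.142 and 0.089, Ccl19 -0.015 and Cxcl10 -0.186. With single libraries left out Cxcl9 ran from -0.404 to 0.452, Ccl27a from -0.223 to 0.514, Ccl3 from -0.750 to 0.321, Ccl5 from -0.090 to 0.988, Cxcl10 from -0.120 to 0.901, Cxcl12 from -0.150 to 0.113 and Xcl1 from -0.333 to 0.102. Their causes were not tested.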
